A study of Mus musculus with 6 samples.

Results

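The genes described here encode subunits of the mitochondrial respiratory chain, and they were taken by name and not by their values. All single-gene probe sets with an annotated symbol beginning with Nduf, Uqcr, Cox4, Cox5, Cox6, Cox7 or Cox8, or with the symbol Sdha, Sdhb, Sdhc or Sdhd, were collected, and where a gene had several, the brightest on average across the 6 arrays stood for it. This gave 67 of the 12393 genes measured. They comprised 34 genes of complex I, 4 of complex II, 8 of complex III and 16 of complex IV, and 5 Ndufaf genes, which share the prefix but encode assembly factors of complex I and no subunits. In the RefSeq gene table all 67 symbols were current, and the genes lay on 18 chromosomes, with Ndufa1 and Ndufb11 on the X chromosome. Ndufa4l2, Cox7b and Cox7b2 were not analysed here.

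The study measured RNA of mouse cochleae at embryonic day 18.5 on single-colour Affymetrix arrays. Embryos came from matings of heterozygous parents on a C57BL/6J background and carried either intact Igf1 alleles (Igf-1 +/+, 3 arrays) or a loss of both (Igf-1 -/-, 3 arrays), with no other allele or agent named for either group. Each array held an independent pool of RNA from 4 cochleae, dissected with the otic capsule and without the vestibular organs. Igf1 encodes the secreted insulin-like growth factor 1, and the part of the gene that was disrupted is not given in the labels. One label field, on the source of the RNA, reads +/+ for all 6 samples and gives wild type replicate 2 a slightly different age, so genotypes were taken from titles and descriptions. At the brightest Igf1 probe set the log2 signal was 11.14, 10.99 and 11.02 in the wild type pools and 10.60, 10.46 and 10.72 in the null pools, lower in each null pool, with a difference of -0.46 ± 0.12 (SE, limma adjusted p = 0.887 over all probe sets). The other Igf1 probe sets were also lower in each null pool, with differences of -0.99 ± 0.12 and -0.55 ± 0.15 (SE, limma adjusted p = 0.600 and 0.889). The direction is that of the titles at all 3 probe sets, but which of them lie in the disrupted part is not known here. The deposited median of null replicate 1 was 5.61, apart from the other arrays at 6.09 to 6.37, and values below are log2 signals after quantile normalization.

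Background was read from 65 probe sets of odorant and pheromone receptor genes, whose mean levels had a 95th percentile of 3.40. In both genotypes all 67 respiratory chain genes lay above this level, with a median at the 94.6 percentile of gene levels. Of the markers used to check the tissue, 5 of 5 hair cell, 4 of 5 supporting cell, 5 of 5 cartilage, 3 of 3 bone, 5 of 5 neuron and 2 of 4 stria vascularis genes were above it in both genotypes. So were 11 of 12 skeletal muscle, 4 of 5 brown fat, 3 of 3 macrophage, 2 of 3 erythroid and 2 of 2 vestibular markers, cells that the dissection could also hold. Some of these markers separated the genotypes without passing the adjusted threshold. The vestibular genes Hmx3 and Oc90 were higher in each null pool, by 0.66 ± 0.19 and 0.86 ± 0.30 (SE), and the mean of both ran from 7.15 to 7.47 in wild type and from 7.74 to 8.47 in null pools. The erythroid genes Slc4a1 and Alas2 were lower in each null pool, with differences of -1.76 ± 0.18 and -0.79 ± 0.23 (SE). The third, Hba-a1, was not above background and had a higher null mean, by 0.74. The mean of the 3 ran from 3.97 to 4.89 in wild type and from 3.41 to 4.31 in null pools. All 5 cartilage genes had a lower null mean, and their mean level ran from 10.98 to 11.37 in wild type and from 10.52 to 11.26 in null pools. The part of these markers in the values below was not tested. In RNA of whole cochleae, fewer cells of a type and less RNA per cell cannot be told apart.

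The respiratory chain passes electrons from NADH and succinate to oxygen across the inner mitochondrial membrane. Complex I takes electrons from NADH and complex II from succinate, complex III passes them from ubiquinol to cytochrome c, and complex IV, cytochrome c oxidase, hands them to oxygen, while complexes I, III and IV pump the protons that drive ATP synthase. The catalytic subunits of complex IV and part of complexes I and III are encoded in mitochondrial DNA, so the genes below are the nuclear share, and several subunits of complex IV exist as tissue isoforms. In the cochlea the chain is known for supplying ion transport by the stria vascularis and as a site where inherited defects cause hearing loss.

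Whether loss of Igf1 alters the RNA of these subunits was asked by comparing the genotypes gene by gene. No respiratory chain gene passed the test for a difference between genotypes. Differences (null minus wild type, log2 scale, SE from limma, n = 3 pools per genotype throughout) ran from -0.32 for Ndufab1 to 0.51 for Cox8b, with a median of 0.029 against 0.0062 over all genes. In limma 0 of 67 members passed an adjusted p of 0.05, as did 0% of all 12393 genes, and the smallest adjusted p among members was 0.998. At an unadjusted p under 0.05 there were 0 members with lower and 0 with higher signal in null pools, where 2.37% and 2.57% of all genes were called. The smallest unadjusted p of a member in limma was 0.0995, for Ndufaf4. The null arrays lay wholly below the wild type arrays in 0 members (4.98% of all genes) and wholly above them in 2 members (5.62% of all genes), Ndufa7 and Ndufaf4.

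By sign, 28 members had lower and 39 higher signal in the null pools, and 48.7% of all genes had lower signal. That split follows the scaling between arrays: 47 members were lower with the values as deposited, where the median of all genes shifted to -0.14, and 16 with median centring. Of all genes 75.8% and 44.6% were lower in these settings. The split also follows single pools, with 42 members lower without null replicate 1 (47.8% of all genes) and 14 without null replicate 3 (49.3% of all genes). The 95% interval of the difference, from the limma fit and not adjusted for the number of genes, lay within 0.5 on either side of 0 for 42 of 67 members and within 1 for 63. The 4 members with wider intervals were Cox8b, Cox7a1, Cox6a2 and Cox4i2, all of complex IV.

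**Figure D1:**
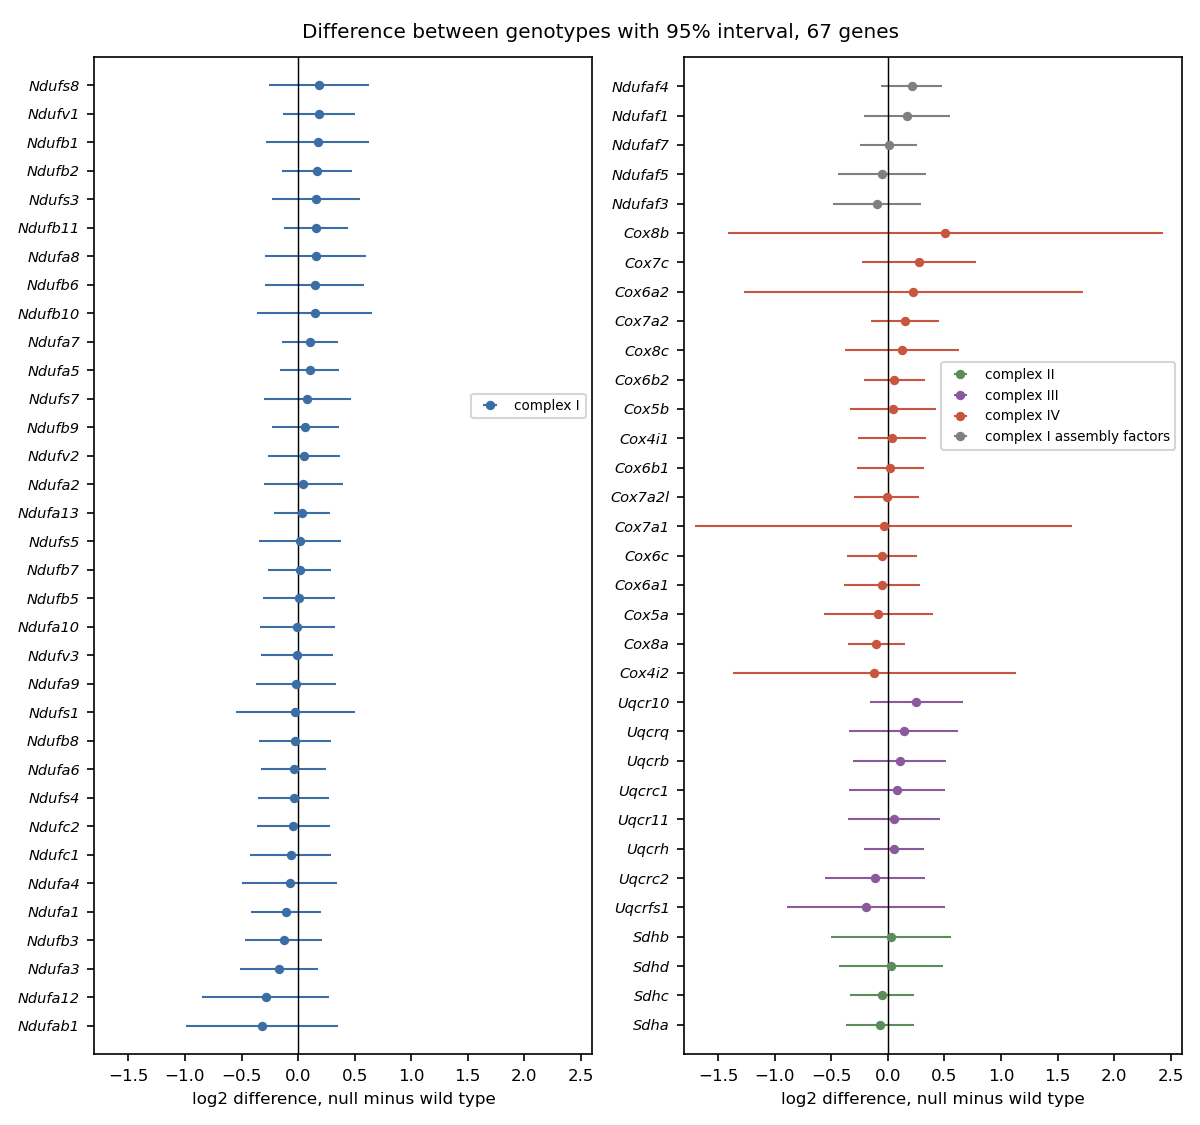
Difference in log2 signal between Igf1 null and wild type pools (points, null minus wild type) with its 95% interval from limma (bars, n = 3 pools per genotype) for each of the 67 genes, coloured by complex. All 67 intervals include 0, and the widest belong to Cox8b, Cox7a1, Cox6a2 and Cox4i2.

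Complex I holds the NADH-oxidising and ubiquinone-reducing core, conserved from bacteria, and a shell of accessory subunits. Of the 6 core genes measured, 5 had higher and 1 lower signal in the null pools, with a median of 0.12. Ndufv1, which encodes the subunit that binds NADH and flavin, read 9.78, 9.87 and 9.96 in the wild type pools and 10.14, 10.16 and 9.87 in the null pools. It overlapped between genotypes through null replicate 3 and differed by 0.18 ± 0.12 (SE). Ndufs8, an iron-sulfur subunit, read 10.12, 10.24 and 10.14 in the wild type pools and 10.67, 10.30 and 10.07 in the null pools, the highest value in null replicate 1 and the lowest in null replicate 3, with a difference of 0.19 ± 0.18 (SE). Ndufs3, a core subunit of the ubiquinone arm, read 9.59, 9.64 and 9.59 in the wild type pools and 9.94, 9.88 and 9.47 in the null pools, again highest in null replicate 1 and lowest in null replicate 3. Its difference was 0.16 ± 0.15 (SE), and 0.30 ± 0.10 (SE) without null replicate 3, where leaving out the lowest pool raises the null mean by itself. The other core genes differed by 0.082 (Ndufs7), 0.048 (Ndufv2) and -0.026 (Ndufs1), each with overlapping groups. The other probe sets of Ndufv2 had the opposite sign, at -0.14 and -0.15, so its direction is not settled. Those of Ndufv1, Ndufs7 and Ndufs8 kept the sign of the brightest.

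The 28 accessory genes of complex I divided evenly, 14 with lower and 14 with higher signal, and had a median difference of 0.00093. The lowest was Ndufab1, the mitochondrial acyl carrier protein, which also serves fatty acid synthesis in mitochondria. It read 9.16, 9.04 and 9.30 in the wild type pools and 9.30, 8.92 and 8.33 in the null pools, with a difference of -0.32 ± 0.27 (SE) and a range of 0.97 over the null pools alone. Ndufa12 read 10.19, 10.004 and 10.04 in the wild type pools and 10.12, 9.90 and 9.35 in the null pools and differed by -0.29 ± 0.22 (SE), with null replicate 3 far below the other null pools. On the other side stood Ndufb2 (0.17 ± 0.12 SE) and the X-linked Ndufb11 (0.16 ± 0.11 SE). Ndufb11 read 11.01, 10.75 and 10.86 in the wild type pools and 11.11, 11.03 and 10.96 in the null pools, with wild type replicate 1 above 1 of the null pools. For Ndufa7 the groups did not overlap, at 10.62, 10.64 and 10.48 against 10.64, 10.75 and 10.65, but the gap between them was small beside the difference of 0.10 ± 0.099 (SE). Ndufa4, first purified with complex I and now assigned to complex IV, differed by -0.075 ± 0.17 (SE).

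Assembly factors of complex I help to join its modules and do not stay in the enzyme. Ndufaf4 read 7.52, 7.36 and 7.35 in the wild type pools and 7.66, 7.52 and 7.67 in the null pools, higher in each null pool, and its difference of 0.21 ± 0.11 (SE) had an adjusted p of 0.998 in limma. The second probe set of Ndufaf4 also lay higher in each null pool, by 0.29 ± 0.12 (SE). Ndufaf1 read 7.13, 7.24 and 7.01 in the wild type pools and 7.53, 7.27 and 7.10 in the null pools and overlapped, with a difference of 0.17 ± 0.15 (SE). Ndufaf3, Ndufaf5 and Ndufaf7 differed by -0.093, -0.051 and 0.0062. The median of the 5 factors was 0.0062, or -0.14 with the values as deposited.

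Complex II is the succinate dehydrogenase shared with the citric acid cycle, and the differences of its 4 subunits ran from -0.069 to 0.030. Sdha, the flavoprotein that oxidises succinate, read 9.66, 9.64 and 9.76 in the wild type pools and 9.63, 9.77 and 9.46 in the null pools. Sdhb, the iron-sulfur subunit, read 10.25, 10.19 and 10.14 in the wild type pools and 10.51, 10.37 and 9.79 in the null pools, with null replicates 1 and 2 above all wild type pools and null replicate 3 below them. The membrane anchors Sdhc and Sdhd differed by -0.051 ± 0.11 and 0.029 ± 0.18 (SE). Differences for Sdha and Sdhb were -0.069 ± 0.12 and 0.030 ± 0.21 (SE), the median of the complex was -0.011, and in each of the 4 genes the lowest of the 6 arrays was null replicate 3. With single arrays left out the median ran from -0.088 to 0.11, the highest without null replicate 3. Leaving out the lowest null pool raises the null mean by itself.

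Complex III had 6 of 8 genes with higher and 2 with lower signal and a median of 0.069, which was -0.040 with the values as deposited and 0.20 without null replicate 3. Uqcr10, a small accessory subunit, read 9.64, 9.55 and 9.46 in the wild type pools and 9.99, 9.92 and 9.49 in the null pools, and only null replicate 3 reached into the wild type range. Its difference was 0.25 ± 0.16 (SE, limma adjusted p = 0.998) and 0.41 ± 0.11 (SE) without that pool. Leaving out the lowest null pool raises the null mean by itself, here and for Uqcrq. Uqcrq, another accessory subunit, read 9.51, 9.44 and 9.37 against 9.78, 9.76 and 9.19, with null replicates 1 and 2 above all wild type pools and null replicate 3 below them, and differed by 0.33 ± 0.11 (SE) without that pool. Uqcrfs1 encodes the Rieske iron-sulfur protein, which carries electrons on to cytochrome c1. It read 9.28, 9.28 and 9.39 in the wild type pools and 9.57, 9.25 and 8.55 in the null pools, with null replicate 3 well below all others and a difference of -0.20 ± 0.28 (SE). Core proteins Uqcrc1 and Uqcrc2 differed by 0.080 ± 0.17 and -0.11 ± 0.18 (SE). The remaining subunits taken by name, Uqcrb, Uqcrh and Uqcr11, differed by 0.10, 0.054 and 0.057, with SE of 0.16, 0.10 and 0.16.

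Complex IV had 9 genes with higher and 7 with lower signal and a median of 0.029. Cox4i1, the isoform of subunit 4 found in most tissues, read 11.86, 11.89 and 11.86 in the wild type pools and 11.97, 12.03 and 11.71 in the null pools, and its 95% interval ran from -0.27 to 0.33. Cox4i2, the lung isoform that also responds to oxygen, read 4.14, 4.63 and 4.88 in the wild type pools and 4.98, 3.39 and 4.93 in the null pools. Null replicate 2 lay at the level of the receptor background, and the interval ran from -1.37 to 1.13. Cox7c, a small structural subunit, had the smallest p of the complex, at 6.08, 5.64 and 5.98 in the wild type pools and 6.20, 5.88 and 6.44 in the null pools, with a difference of 0.27 ± 0.20 (SE, limma adjusted p = 0.998). That value was 1.17 without _x_at and _s_at probe sets, from a dim probe set, and 0.0089 without wild type replicate 2 and null replicate 3. Cox6b1 and Cox7a2l, the latter a factor that joins complexes III and IV, differed by 0.024 ± 0.12 and -0.011 ± 0.11 (SE). The isoforms known from testis, Cox6b2 and Cox8c, differed by 0.058 ± 0.11 and 0.13 ± 0.20 (SE).

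Isoforms of striated muscle had the widest spread between pools of all 67 genes. Cox6a2, Cox7a1 and Cox8b encode the forms of subunits 6a, 7a and 8 of heart and skeletal muscle, and in rodents Cox7a1 and Cox8b are abundant in brown fat too. Cox8b read 7.68, 6.27 and 7.93 in the wild type pools and 8.52, 8.50 and 6.39 in the null pools. Cox6a2 read 8.20, 6.86 and 8.39 in the wild type pools and 8.82, 8.12 and 7.18 in the null pools. Cox7a1 read 7.32, 5.85 and 7.39 in the wild type pools and 7.29, 7.47 and 5.69 in the null pools. In all 3 genes wild type replicate 2 and null replicate 3 were the lowest arrays, 1 pool of each genotype, and the remaining 4 pools lay higher. The standard deviation over the 6 arrays was 1.00 for Cox8b, 0.83 for Cox7a1 and 0.75 for Cox6a2. Its median was 0.15 for the 67 members and 0.14 for the 1370 genes at or above the lower quartile of member levels. Over all genes the median was 0.23, and 3628 of 12393 genes exceeded 0.5. Cox8b, Cox7a1 and Cox6a2 lay below that quartile, at level percentiles of 66.6, 53.2 and 73.7. Differences between genotypes were 0.51 ± 0.76, -0.037 ± 0.66 and 0.22 ± 0.59 (SE), so intervals ran from -1.41 to 2.43 for Cox8b, from -1.70 to 1.63 for Cox7a1 and from -1.27 to 1.72 for Cox6a2. With both low pools left out, a choice made after seeing the data, Cox8b differed by 0.71 ± 0.15, Cox6a2 by 0.18 ± 0.31 and Cox7a1 by 0.023 ± 0.14 (SE, limma adjusted p = 0.649, 0.918 and 0.980).

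The widely expressed partners showed no such layout. Cox6a1 read 11.81, 12.03 and 11.73 in the wild type pools and 11.87, 11.89 and 11.65 in the null pools. Cox7a2 read 11.69, 11.68 and 11.63 in the wild type pools and 11.97, 11.86 and 11.64 in the null pools. Cox8a read 10.05, 10.07 and 10.002 in the wild type pools and 9.84, 10.04 and 9.93 in the null pools. Their differences were -0.051 ± 0.13, 0.15 ± 0.12 and -0.10 ± 0.099 (SE), and their standard deviations over the 6 arrays were 0.13, 0.14 and 0.086. Skeletal muscle markers were lowest in the same pools as the muscle isoforms: the mean log2 signal of the 12 markers was 9.28, 7.82 and 10.03 in wild type and 9.88, 9.24 and 8.14 in null pools. All 12 had wild type replicate 2 and null replicate 3 as their lowest arrays, as had 6.71% of all genes. Creatine kinase gene Ckm, an example, read 10.50, 9.14 and 11.13 in the wild type pools and 11.13, 10.77 and 8.95 in the null pools. The 5 brown fat markers averaged 7.03, 5.67 and 7.04 in wild type and 6.96, 7.69 and 5.58 in null pools, and in 4 of 5 the same pools were lowest, with the thermogenic gene Ucp1 at 6.65, 4.43 and 5.65 in the wild type pools and 5.03, 7.49 and 3.46 in the null pools. Wild type replicate 2 and null replicate 3 were also the lowest arrays in 12 of the 64 members other than the muscle isoforms (18.8%). The same held for 7 of 19 ATP synthase genes (36.8%) and 10 of 15 citric acid cycle genes (66.7%). The part of muscle or fat in the isoform signal was not tested.

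**Figure D2:**
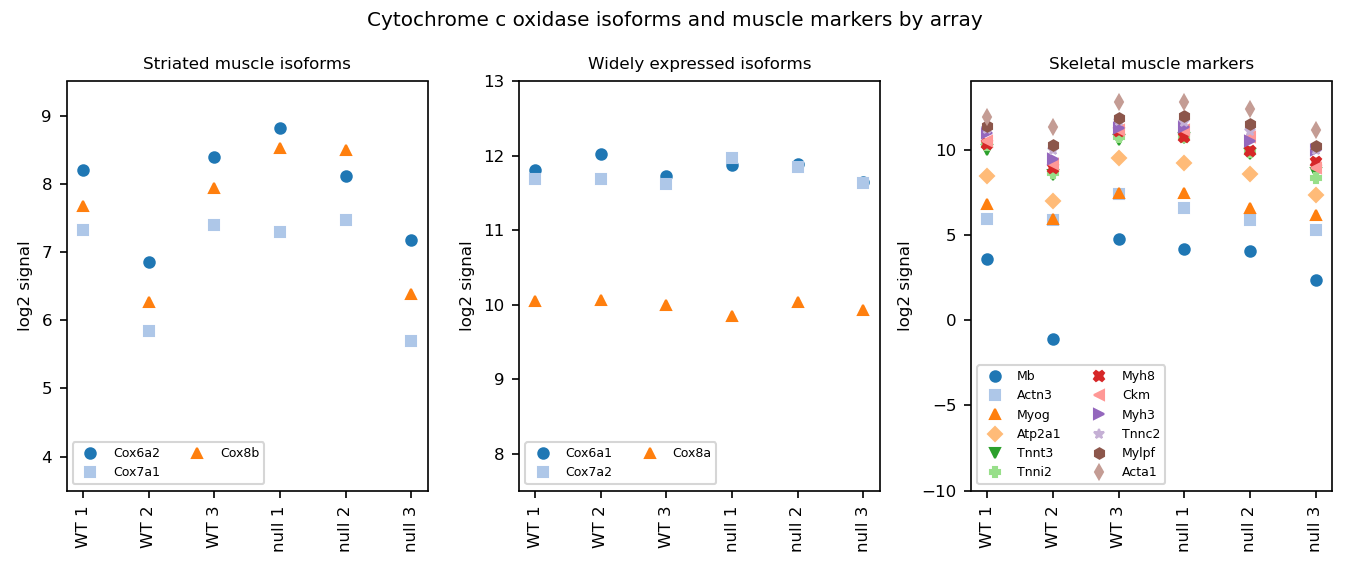
Log2 signal after quantile normalization in each of the 6 pools (WT, wild type; null, Igf1 null; numbers are replicates) for 3 striated muscle isoforms of complex IV, their 3 widely expressed partners and 12 skeletal muscle markers, 1 point per gene and pool. Muscle isoforms and markers are lowest in WT 2 and null 3, while the partners have standard deviations of 0.086 to 0.14 over the 6 pools.

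The start regions of these isoform genes are shown because the forms of a pair are known to be expressed in different tissues. Each line gives the 250 bases before the transcription start from RefSeq (GRCm38.p6), 5′ to 3′ on the gene's strand, with matches on either strand in capitals for NRF-1 (GCGC, any base, then TGCGC), the ETS motif bound by GABP (CCGGAAG), YY1 (AAGATGG), Sp1 (GGGCGG), the estrogen-related receptors (AAGGTCA), the myogenic E-box (CAGCTG) and MEF2 (CTA, 4 bases of any kind, then TAG). None of these matches overlapped another. Cox6a2 is named only.
Cox6a1 (chr5:115348959-115349208, minus strand): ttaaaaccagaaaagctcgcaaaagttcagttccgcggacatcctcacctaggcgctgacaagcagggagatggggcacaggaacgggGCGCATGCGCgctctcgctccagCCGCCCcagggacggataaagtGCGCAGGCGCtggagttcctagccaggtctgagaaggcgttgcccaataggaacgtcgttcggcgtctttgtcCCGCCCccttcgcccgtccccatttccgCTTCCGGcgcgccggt
Cox7a2 (chr9:79759854-79760103, minus strand): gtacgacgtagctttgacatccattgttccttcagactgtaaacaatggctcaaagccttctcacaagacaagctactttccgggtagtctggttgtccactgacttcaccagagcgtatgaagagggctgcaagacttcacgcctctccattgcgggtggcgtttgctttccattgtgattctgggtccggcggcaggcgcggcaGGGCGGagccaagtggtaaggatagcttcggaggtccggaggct
Cox8a (chr19:7217617-7217866, minus strand): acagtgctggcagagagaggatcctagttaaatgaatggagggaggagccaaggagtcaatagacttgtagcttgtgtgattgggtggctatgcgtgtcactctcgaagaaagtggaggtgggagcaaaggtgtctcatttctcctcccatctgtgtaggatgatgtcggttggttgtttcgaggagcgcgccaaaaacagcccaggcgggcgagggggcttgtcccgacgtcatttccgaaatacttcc
Cox7a1 (chr7:30183921-30184170, plus strand): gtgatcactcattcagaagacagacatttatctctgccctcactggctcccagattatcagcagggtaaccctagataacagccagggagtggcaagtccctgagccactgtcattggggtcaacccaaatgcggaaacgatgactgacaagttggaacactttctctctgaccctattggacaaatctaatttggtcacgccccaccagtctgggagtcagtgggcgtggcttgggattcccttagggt
Cox8b (chr7:140900447-140900696, minus strand): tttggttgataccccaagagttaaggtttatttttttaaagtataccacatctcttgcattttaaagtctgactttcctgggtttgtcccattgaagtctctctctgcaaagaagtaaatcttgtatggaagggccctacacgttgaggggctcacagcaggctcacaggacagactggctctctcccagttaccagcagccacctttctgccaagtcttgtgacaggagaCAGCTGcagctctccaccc
Cox6a1 held 5 matches, 2 for NRF-1, 1 for ETS and 2 for Sp1. Cox7a2 held 1 for Sp1, and Cox8b held 1 E-box and another after the start. Cox8a held no match within the bases shown, but its window of 300 bases held 2 for ETS, 1 spanning the start and 1 after it. None of these letters were found in the window of Cox7a1.

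Over the whole list, 55 of 67 members matched the RefSeq promoter table, with 57 windows of 300 bases (250 before to 50 after the start). NRF-1 and GABP are known regulators of nuclear genes of the respiratory chain. NRF-1 letters stood in 19.3% of member windows, in 12.9% of windows of bright genes and in 4.60% of all 32851 windows. Bright genes are those at or above the lower quartile of member levels, and both comparison sets include members. For ETS the shares were 21.1%, 16.4% and 8.86%, and for YY1 12.3%, 7.65% and 6.34%. Sp1 letters were in 45.6% of member windows, below the 66.8% of bright genes and above the 35.7% of all. Shares for the receptor motif were 5.26%, 2.98% and 4.72%, for the E-box 8.77%, 13.7% and 16.3%, and for MEF2 3.51%, 2.98% and 3.69%. These are matches of letters and do not show binding.

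Across the complexes the null pools stood apart from one another. The median member lay 0.15 above its own 6-array mean in null replicate 1, 0.068 above it in null replicate 2 and at -0.17 relative to it in null replicate 3, while wild type replicates 1 to 3 stood at 0.041, -0.053 and -0.014. Null replicate 1 was the highest array for 34 of 67 members (50.7%, against 19.1% of all genes and 18.1% of the 1370 bright genes), and null replicate 3 was the lowest for 37 (55.2%, against 16.03% and 18.4%). By complex, null replicate 3 was lowest for 22 of 34 complex I, 4 of 4 complex II, 4 of 8 complex III and 6 of 16 complex IV genes, and for 1 of 5 assembly factors. Set against the bright genes, the median member stood at 0.17 in null replicate 1 and -0.19 in null replicate 3, and with the values as deposited these figures were 0.16 and -0.20. These shares describe the pools and carry no test.

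**Figure D3:**
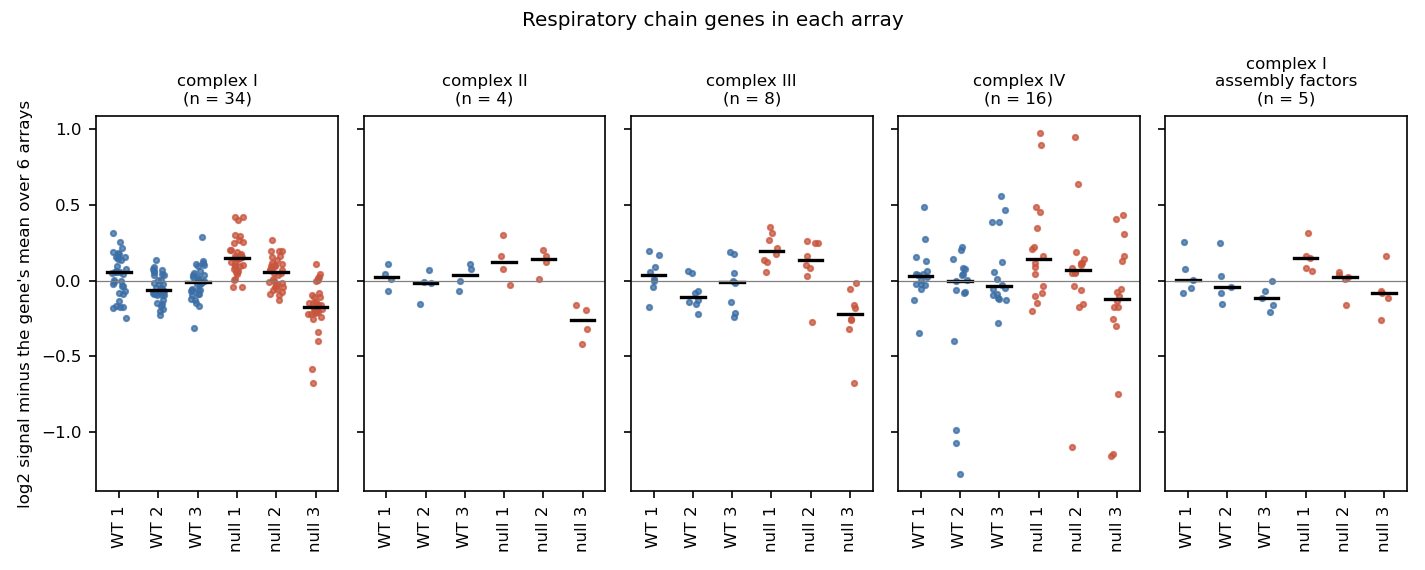
Log2 signal of each gene minus its own mean over the 6 arrays (points) in the wild type (WT, blue) and Igf1 null (red) pools, by complex, with the median of each pool as a black line. Null 1 lies mostly above 0 and null 3 mostly below it, with the medians over all 67 genes at 0.15 and -0.17, and the 3 muscle isoforms form the low points of WT 2 and null 3 in complex IV.

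Other measures also differed between these pools, though not always in the order of the members. Null replicate 1, the highest array for many members after quantile normalization, had the lowest deposited median of the 6 arrays, 5.61. The skeletal muscle marker mean was 9.88 in null replicate 1 and 8.14 in null replicate 3, and lowest, at 7.82, in wild type replicate 2, where the median member stood at -0.053. It was highest, at 10.03, in wild type replicate 3, where the median member stood at -0.014. The 3′ minus 5′ log2 signal of control probe sets, a sign of RNA integrity, was taken from the values as deposited. For beta-actin it was 0.76, 0.71 and 0.80 in wild type and 0.89, 0.86 and 1.08 in null pools. It was higher in each null pool than in any wild type pool, and highest in null replicate 3. For Gapdh it was 0.19, 0.32 and 0.25 in wild type and 0.18, 0.35 and 0.52 in null pools. Their part in the layout was not tested. With the muscle marker mean as a covariate the median difference of the 67 genes was 0.023. Without null replicate 3 it was 0.095, with 53 of 67 members higher and 24 wholly above the wild type arrays, where 10.7% of all genes were, and 0 members passed the adjusted threshold. Without null replicate 1 the median was -0.029.

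For 36 of the 67 genes other single-gene probe sets were present, 61 in all, which give a second reading of the same RNA. Of these, 53 were above the receptor background in both genotypes, with differences from -0.21 to 0.44, and 15 of the 53 had the opposite sign to the brightest probe set. For Ndufa12 the brightest probe set gave -0.29 and the others -0.036, 0.24 and 0.44, and for Ndufab1 it gave -0.32 and the others 0.029 and 0.21, so neither gene has a settled direction. All 6 probe sets of Ndufs8 gave a higher null mean, from 0.18 to 0.27, and so did all 5 of Ndufa7, from 0.083 to 0.19. The 8 probe sets that were not above background in at least 1 genotype ranged from -2.08 (Ndufb9, mean level -1.97) to 1.97 (Cox5b, mean level 3.38). At that Cox5b set the wild type mean was 2.40, below background, and the null mean 4.36, above it. A dim set for Ndufa10 read 0.94. Over all 128 member probe sets 1 was lower and 1 higher at an unadjusted p under 0.05 in limma, both among the dim ones just named (2.59% and 2.36% of single-gene probe sets), and 2 and 8 had groups that did not overlap, lower and higher (5.40% and 5.49%). The probe set used ends in _x_at for 4 and in _s_at for 6 of the 67 genes, names Affymetrix gives to sets that can match several transcripts, and pseudogenes of this family are common. A further 8 probe sets that name a member together with another gene, among them those of Ndufb4, Ndufs6 and Ndufa11, were left out.

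**Figure D4:**
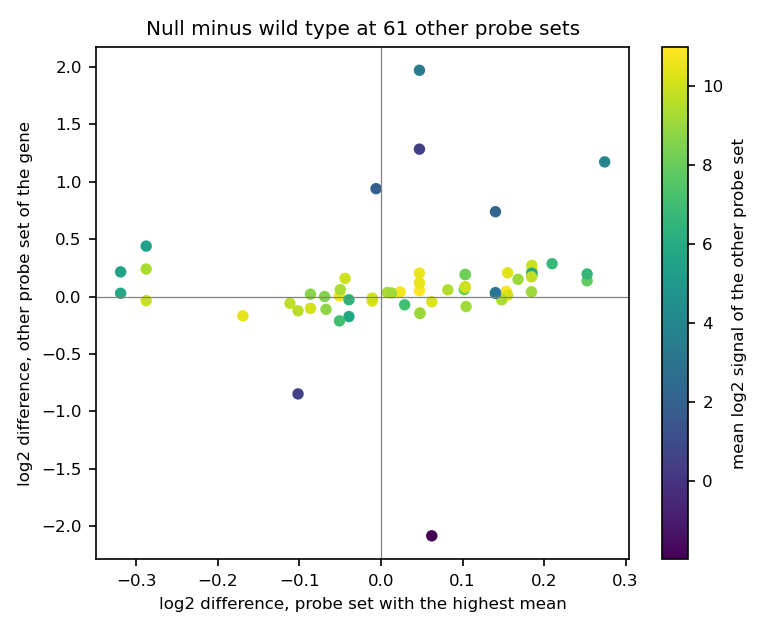
Null minus wild type log2 difference at the brightest probe set of a gene (horizontal axis) against that at each of its 61 other probe sets (vertical axis), coloured by mean log2 signal. Points beyond 0.5 on the vertical axis are probe sets not above background in both genotypes, and the 53 above background lie between -0.21 and 0.44.

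The neighbours of the chain in mitochondrial metabolism also had 0 genes past the adjusted threshold in each list, with a smallest adjusted p of 0.976 in limma. ATP synthase, which uses the proton gradient, had 8 of 19 genes higher and 11 lower and a median of -0.0059. Atp5e, a subunit of its central stalk, differed by 0.28 ± 0.17 (SE), Atp5g3, of the proton ring, by -0.12 ± 0.10 and the inhibitor Atpif1 by 0.12 ± 0.11. As in the chain, null replicate 3 was the lowest array for 12 of these 19 genes and null replicate 1 the highest for 10. Among genes listed with ubiquinone and cytochrome c, the mobile carriers, 10 of 12 were higher, with a median of 0.13. This count holds the testis cytochrome c gene Cyct, which was not above background and differed by 1.21 ± 0.94 (SE). It also holds Cyc1, cytochrome c1 of complex III, which the rule by name did not take, at 0.17 ± 0.25 (SE). Coq4 and Coq6, of ubiquinone synthesis, differed by 0.32 ± 0.15 and 0.29 ± 0.16 (SE), and Dhodh, which feeds electrons to ubiquinone, by 0.21 ± 0.11. Assembly factors of complexes III and IV were divided, 11 of 19 higher, with Cox18 at 7.07, 6.99 and 7.02 against 6.69, 6.85 and 6.77 (-0.26 ± 0.095 SE, unadjusted p = 0.0386 in limma), the heme A synthase gene Cox15 at 6.83, 6.99 and 7.03 against 6.47, 6.65 and 6.79 (-0.31 ± 0.13 SE) and Pet100 at 7.75, 7.75 and 7.78 against 8.29, 8.04 and 7.81 (0.28 ± 0.15 SE), the first pair lower and the last higher in each null pool.

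Regulators of mitochondrial biogenesis had 8 of 19 genes higher and a median of -0.043. Of these, Tfb1m and Tfb2m were higher in each null pool, by 0.19 ± 0.094 and 0.21 ± 0.11 (SE). Tfam, which packages mitochondrial DNA, read 7.99, 7.76 and 7.88 against 7.72, 7.67 and 7.79, with a difference of -0.15 ± 0.11 (SE). In the citric acid cycle 7 of 15 genes were higher, with a median of -0.017, and Idh3b, Pdha1 and Fh1 differed by 0.10 ± 0.098, -0.14 ± 0.14 and 0.15 ± 0.16 (SE). The 1 mitochondrially encoded gene measured, ND5 of complex I, read 11.41, 11.15 and 11.32 in the wild type pools and 11.24, 10.96 and 11.24 in the null pools and differed by -0.14 ± 0.13 (SE). Beside these, the 14 glycolytic enzyme genes measured had a median of -0.17 with 12 lower, the 39 cytosolic ribosomal protein genes 0.046 with 12 lower and the 74 mitochondrial ribosomal protein genes 0.10 with 16 lower. These splits also follow the scaling, and of all genes 75.8% were lower as deposited and 44.6% with median centring. As deposited, the ATP synthase median was -0.089 with 15 lower, that of ubiquinone and cytochrome c -0.0014 with 6 lower, of complex III and IV assembly -0.11 with 15 lower, of biogenesis regulators -0.19 with 17 lower, of the citric acid cycle -0.13 with 13 lower and of mitochondrial ribosomal protein genes -0.035 with 47 lower. With median centring the ATP synthase median was 0.084 with 2 lower and that of the citric acid cycle 0.048 with 6 lower, while the glycolytic median was -0.28 as deposited and -0.11 with median centring and the cytosolic ribosomal median 0.059 and 0.23. No difference between these lists and the respiratory chain was tested.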

How the data were processed

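Each array measured 1 RNA pool. The deposited table holds log2 signals for 22690 probe sets, with the log base inferred from their range; how the authors summarised probes is not given in the sources used here. Because array medians differed, the arrays were quantile normalized after leaving out 64 control probe sets. Genes were named from the platform annotation (20380 single-gene probe sets), and the probe set with the highest mean stood for a gene. For all 12393 genes at once, limma 3.58.1 (R 4.3.3; lmFit, then eBayes) fitted genotype as the only term, and its two-sided p-values were adjusted by the Benjamini-Hochberg method. The number of arrays limits precision, and with 3 against 3 an exact permutation test cannot go below 0.1. No 2 arrays were identical.

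Members and lists were chosen with earlier results of these data known. Named were the core genes of complex I, all of complexes II and III, isoform pairs, the 4 members per complex with the smallest p, up to 4 genes with conflicting probe sets and 3 genes per pathway list. Ckm, Cox5b, Cyc1, Cyct, Hmx3, Oc90, Slc4a1, Alas2, Hba-a1, Ucp1, Ndufa7, the remaining Ndufaf genes and the probe sets of Ndufs8 and Ndufa7 were chosen after their values were seen. So were the other probe sets of core genes of complex I. Alternatives comprised the values as deposited, median centring, blocks, variance models, array weights (statmod 1.5.0), the mean of probe sets, a filter at the 40th percentile, a pseudocount of 32, no _x_at or _s_at sets and leaving out arrays. Chosen after seeing the data were a muscle covariate and leaving out 2 pairs of arrays. The procedure was tested on simulated data.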

Additional observations from a re-analysis of the deposited data

How the results depend on the processing

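No member passed an adjusted p of 0.05 in limma under any of the other fits, nor 0.1 in the reported fit, and the medians of all members and of each complex moved by less than the spread between pools. The exception was the median of assembly factors of complex I, which stood at -0.14 with the values as deposited. Blocks and variance models cannot change the differences, only their SE and p-values, so their unchanged medians carry no information. Members with lower signal numbered 47 with the values as deposited (75.8% of all genes), 16 with median centring (44.6%), 17 without both arrays lowest in muscle markers (50.8%) and 14 to 42 with single arrays left out (47.8% to 50.02%). Wholly lower in null pools were 2 members as deposited (4.62% of all genes), 1 with the mean of probe sets (5.33%), 5 without title number 14 (15.9% of all genes), 5 without the low-muscle arrays (19.1%) and 0 to 5 with single arrays left out (8.03% to 11.2%). Wholly higher were 0 as deposited (0.888%), 4 with median centring (7.16%), 4 without title number 14 (19.4%), 28 without the low-muscle arrays (19.4%) and 2 to 24 with single arrays left out (8.92% to 12.1%). At an unadjusted p under 0.05 in limma, 1 was lower with the mean of probe sets (Ndufb9, through a dim probe set), 1 higher with a pseudocount of 32 (Ndufaf4), 2 without the low-muscle arrays (Cox8b and Ndufa8) and 0 to 3 with single arrays left out, the 3 being Ndufs3, Uqcr10 and Uqcrq without null replicate 3. In either direction 5.03%, 5.95%, 6.58% and, without null replicate 3, 5.56% of all genes were called in these fits. Fewer arrays by themselves make groups overlap less often, and other causes were not tested. Over all genes 0 to 1 passed with single arrays left out, the 1 being Hsd17b3 without null replicate 3. With the replicate block 0 members passed. The median difference of 0.029 could not move there, because each replicate number holds 1 array of each genotype. The deviations of same-numbered arrays correlated at 0.14, 0.29 and 0.041 over the 9565 genes above background in both genotypes. Over the members they correlated at 0.16, -0.39 and -0.52. Over genes above the median level they correlated at 0.23, 0.35 and 0.066. In that last set 5 of 6 arrays correlated best with their own number in the other genotype, a hint from the data and not the design.

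With 3 arrays per genotype, median SE among members was 0.14. Differences of that size were not detectable, and larger ones could be missed too. The unadjusted 95% interval lay within 0.5 on either side of 0 for only 42 of 67 members. At 1 Igf1 probe set a difference of -0.99 ± 0.12 (SE) had a limma adjusted p of 0.600 over all probe sets.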
